A study of Mus musculus with 12 samples.

Results

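The 10 genes described here belong to the response governed by NRF2, the transcription factor encoded by Nfe2l2. They were taken by symbol from the deposited liver table, and all 10 were found among its 18560 genes. The members were Nfe2l2, Keap1, Hmox1, Nqo1, Srxn1, Gclc, Gclm, Txnrd1, Ugdh and G6pdx, and all 10 were among the 11514 genes tested, namely those reaching 1 FPKM in 3 or more libraries. FPKM relate the fragments of a gene to its transcript length and to the size of the library, so that levels can be compared between genes. The values came from RNA sequencing of livers of mice aged 12 months, in 4 groups of 3 libraries. These were male mice of genotype OXR1A-/- (knockout males), wild-type males, OXR1A-/- females (knockout females) and wild-type females. OXR1A is 1 of the isoforms encoded by Oxr1, whose TLDc proteins are known to protect cells from oxidative damage. The sources used here give neither the strain nor whether each library is a different animal, and a p-value here reflects the variation among the libraries sequenced, some of which may be technical.

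In unstressed cells KEAP1, an adaptor of the CUL3 ubiquitin ligase, binds NRF2 and keeps its level low. Electrophiles and oxidants modify cysteines of KEAP1, after which NRF2 accumulates, pairs with small MAF proteins and binds antioxidant response elements near its target genes. In liver these targets serve the synthesis of glutathione, the thioredoxin system, the supply of NADPH, the conjugation of drugs and the breakdown of heme. Much of the control of NRF2 acts on the protein, which RNA levels do not show.

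Oxr1 itself had 22.1 to 25.00 FPKM in knockout males, 12.1 to 23.3 in wild-type males, 19.7 to 21.0 in knockout females and 17.4 to 20.7 in wild-type females. This value pools all isoforms of the gene and does not check the loss of OXR1A. The hepatocyte markers Alb, Apoa1, Ttr, Hnf4a, Serpina3k and Tat were taken as a check of the tissue. Their summed levels were 46103 to 47659 FPKM in knockout males and 57354 to 66544 in wild-type males. In females they were 55547 to 57699 FPKM in knockouts and 50316 to 57400 in wild types. Alb made up most of each sum. Hnf4a went the other way in males, at 125 to 160 FPKM in knockouts and 83.4 to 123 in wild types. Depth, estimated from the spacing of low FPKM values, was about 20940000 to 31460000 fragments a library. The low values lay on average 0.19 to 0.23 of a step from a whole number of steps, so these depths are rough. That distance was largest in wild-type male 2, which gave the upper end. Several libraries stood apart. Wild-type male 2 had the lowest median-ratio size factor (0.758, against 0.931 to 1.12 in the other 11 libraries) and the most negative slope of log2 level on log2 transcript length (-0.22, against -0.09 to 0.12). Knockout male 2 had the highest summed level of macrophage markers, though some of them, such as Clec4f and Vsig4, were higher in female libraries. Knockout male 3, knockout female 1 and wild-type female 1 carried traces of transcripts of the other sex, with 0.82 FPKM of Xist in the first and 0.85 and 1.89 FPKM of the Y-linked gene Eif2s3y in the other two.

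Start regions of the members are shown first because the binding site of NRF2 is defined by its sequence. RefSeq windows of GRCm38.p6, running from 250 bases before to 50 bases after an annotated start, matched 8 of the 10 members in 10 windows, and Hmox1 and Gclc were not matched. The core of the antioxidant response element was searched as TGACNNNGC on both strands. It was present in 6 of the 10 windows, those of Nfe2l2, Srxn1, Gclm, Ugdh, G6pdx and 1 of the 3 of Txnrd1, against 12.4% of all 32851 windows. The related motif TGANTCA, also searched on both strands, occurred in 7.81% of all windows and, among the members, in that of Srxn1, at 2 places that did not overlap the core. One of these places in Srxn1 reads on as tgagtcagc, which differs from the searched core in 1 letter. Other forms of the element were not searched. Below, capitals mark only the matches to TGACNNNGC, which read as the reverse complement where they lie on the opposite strand. Places of TGANTCA are left in small letters. The 4 windows are those of NRF2's own gene, of Srxn1, of Ugdh and of Nqo1, a standard readout of NRF2. The Ugdh window held 2 matches and the Nqo1 window none.
Nfe2l2 (chr2:75704614-75704913, minus strand): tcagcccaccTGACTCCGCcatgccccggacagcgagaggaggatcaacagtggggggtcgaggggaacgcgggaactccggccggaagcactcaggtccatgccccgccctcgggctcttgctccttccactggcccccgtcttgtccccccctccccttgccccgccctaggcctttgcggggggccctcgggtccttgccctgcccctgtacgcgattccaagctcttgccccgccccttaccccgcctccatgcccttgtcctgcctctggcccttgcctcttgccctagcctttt
Srxn1 (chr2:152105274-152105573, plus strand): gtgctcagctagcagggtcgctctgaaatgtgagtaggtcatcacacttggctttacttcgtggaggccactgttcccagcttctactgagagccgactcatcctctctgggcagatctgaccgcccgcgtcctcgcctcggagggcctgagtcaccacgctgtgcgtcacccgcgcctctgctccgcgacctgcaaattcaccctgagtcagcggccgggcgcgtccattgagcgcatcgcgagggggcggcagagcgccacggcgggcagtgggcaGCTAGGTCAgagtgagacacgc
Ugdh (chr5:65435793-65436092, minus strand): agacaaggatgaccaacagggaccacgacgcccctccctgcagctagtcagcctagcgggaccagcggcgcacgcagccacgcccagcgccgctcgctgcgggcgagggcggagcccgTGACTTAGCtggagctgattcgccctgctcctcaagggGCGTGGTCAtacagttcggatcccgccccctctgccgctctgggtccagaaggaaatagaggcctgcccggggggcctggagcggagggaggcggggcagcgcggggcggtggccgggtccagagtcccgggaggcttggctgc
Nqo1 (chr8:107403156-107403455, minus strand): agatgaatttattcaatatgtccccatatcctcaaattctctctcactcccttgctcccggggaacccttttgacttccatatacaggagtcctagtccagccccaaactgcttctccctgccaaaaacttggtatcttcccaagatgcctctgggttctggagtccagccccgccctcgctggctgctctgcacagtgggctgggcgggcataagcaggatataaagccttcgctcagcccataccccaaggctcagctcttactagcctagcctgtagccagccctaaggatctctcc
Counted from the annotated start, the match lay at -240 to -232 in Nfe2l2, at 29 to 37 in Srxn1, and at -132 to -124 and -94 to -86 in Ugdh. A match is a description of these letters, and the absence of one concerns this window only.

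Every NRF2 response gene averaged higher in the knockout males than in the wild-type males, and none passed the test. Their log2 changes ran from 0.25 in Keap1 to 1.01 in Hmox1, with a median of 0.58, beside a median of 0.19 over all tested genes, of which 9074 of 11514 were above 0. The test was limma on log2(FPKM + 1) with Benjamini-Hochberg adjustment over all tested genes. It called 0 of the 10 members, against 2.55% of all genes (245 higher, 49 lower), while 7 members had an unadjusted p under 0.05, as did 23.9% of all genes. In 6 members, Nfe2l2, Keap1, Hmox1, Nqo1, Srxn1 and Ugdh, every knockout male lay above every wild-type male, which was so in 21.2% of all genes. Relative to the median gene, the 10 log2 changes were 0.06 to 0.82, and all remained above 0 under median-ratio scaling and quantile normalization. With those scalings the calls over all genes were split otherwise, at 68 higher and 77 lower with the first and 61 higher and 79 lower with the second. In bulk tissue, a change in the number of cells of a type and a change in RNA per cell cannot be told apart.

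**Figure D1:**
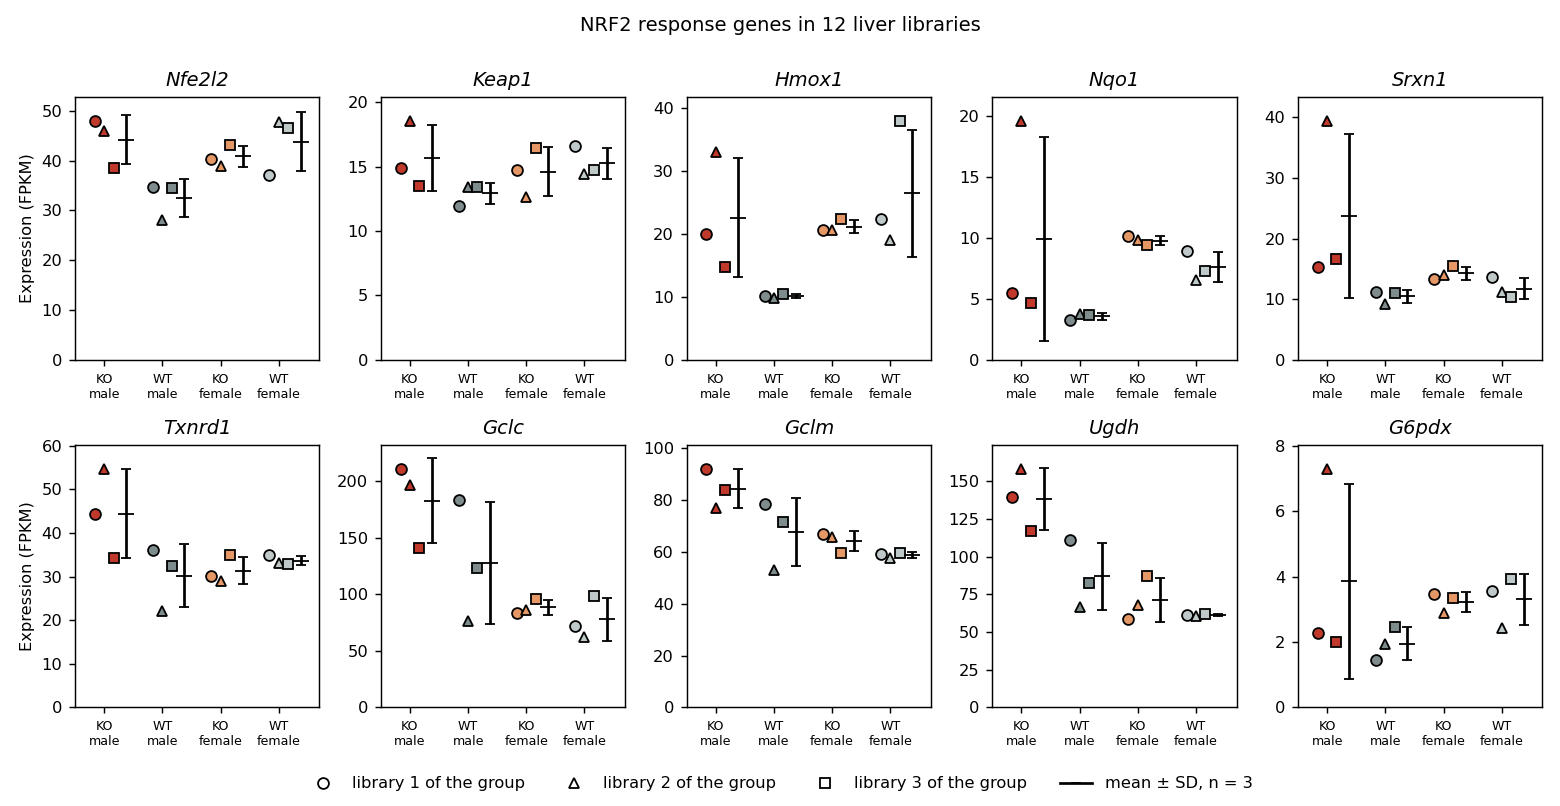
Expression in FPKM of the 10 NRF2 response genes in 12 liver libraries, as points by group (KO, OXR1A-/-; WT, wild type) with the mean ± SD of 3 libraries beside them. Knockout male 2, the red triangle, is the highest of the 12 libraries in 6 genes, among them Srxn1 at 39.4 FPKM and Nqo1 at 19.6 FPKM.

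In females the same genes lay close together in the knockout and the wild-type livers. The log2 changes ran from -0.25 in Hmox1 to 0.33 in Nqo1, with a median of 0.06, beside 0.003 over all genes. Limma called 0 of the 10 members, against 0.0174% of all genes, and 0 members had an unadjusted p under 0.05, against 6.13% of all genes. In 2 members, Nqo1 and Gclm, every knockout female lay above every wild-type female, as in 9.22% of all genes. The difference between the knockout effects of males and females was above 0 in all 10 members except Gclm under median-ratio scaling (-0.07), as it was in 8726 of the 11514 genes tested, and its median was 0.55 over the members, beside 0.20 over all genes. It called 0 members, against 0.0261% of all genes, and 3 members, Nfe2l2, Hmox1 and Txnrd1, had an unadjusted p under 0.05, against 9.03% of all genes. Averaged over the sexes, the knockout effect called 0 members, against 1.46% of all genes (126 higher and 42 lower, but 26 and 43 with median-ratio scaling), and 4 members (Nqo1, Srxn1, Gclm and Ugdh) had an unadjusted p under 0.05, against 20.1% of all genes.

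**Figure D2:**
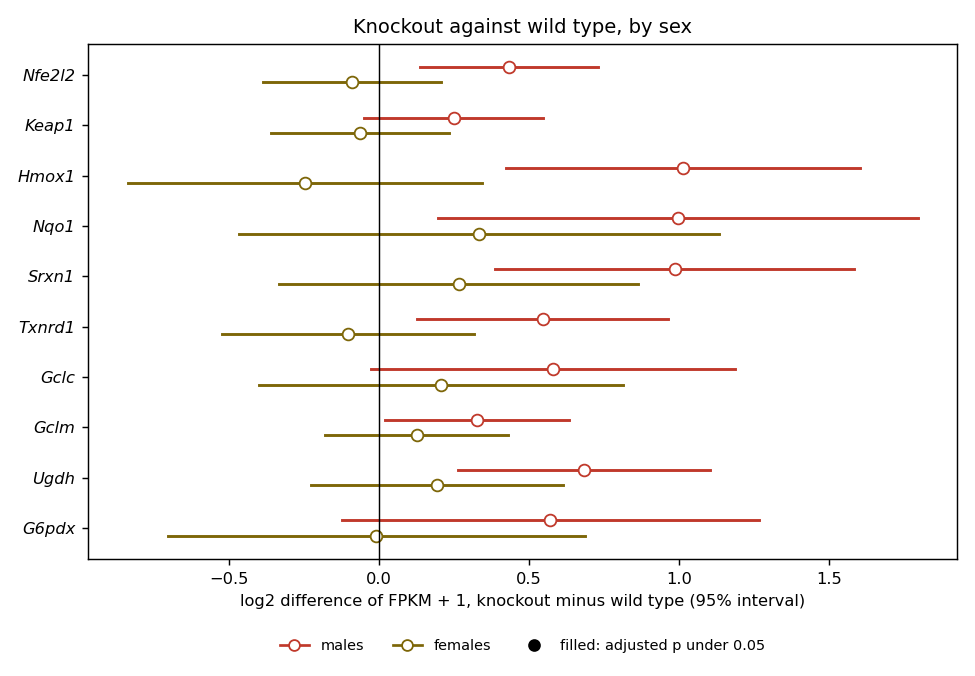
Log2 difference of FPKM + 1, knockout minus wild type, for each NRF2 response gene in males and in females, with its 95% interval from limma. No symbol is filled, since 0 of the 10 genes passed the adjusted test in either sex.

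Nfe2l2 (Entrez gene 18024, GRCm38 chromosome 2, 75675513 to 75704663) encodes the transcription factor NRF2. It had 47.9, 45.9 and 38.6 FPKM in knockout males 1 to 3, against 34.7, 28.1 and 34.5 FPKM in wild-type males 1 to 3. The lowest knockout male lay above the highest wild-type male. By limma the log2 change was 0.43 (SE 0.14, 95% interval 0.14 to 0.73, adjusted p = 0.0974). In females the gene had 40.4, 39.0 and 43.2 FPKM in the knockouts, against 37.1, 47.8 and 46.6 FPKM in the wild types, and the groups overlapped (log2 change -0.09, 95% interval -0.39 to 0.21, adjusted p = 0.942). The group means were 44.1 ± 4.93 FPKM in knockout males, 32.4 ± 3.76 in wild-type males, 40.9 ± 2.13 in knockout females and 43.8 ± 5.88 in wild-type females (SD, n = 3 each). The wild-type males lay below all other libraries, and the other 3 groups overlapped one another. The difference between the knockout effects of the sexes was 0.52 on the log2 scale (95% interval 0.11 to 0.94) with an adjusted p of 0.54 by limma.

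Keap1 (Entrez gene 50868, GRCm38 chromosome 9, 21229730 to 21239332), which encodes the inhibitor of NRF2, varied least of the 10 genes. It had 14.9, 18.5 and 13.5 FPKM in the knockout males and 12.0, 13.4 and 13.4 FPKM in the wild-type males. The ranges did not overlap, but the lowest knockout male, at 13.53 FPKM, and the highest wild-type male, at 13.43, were nearly level. The log2 change was 0.25 (95% interval -0.05 to 0.55, adjusted p = 0.279 by limma). In females the levels overlapped, at 14.6 ± 1.91 FPKM in knockouts and 15.3 ± 1.20 FPKM in wild types.

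Other regulators of NRF2 were taken as a list of 14 genes, all tested. Their median log2 change in knockout males was 0.24, beside 0.19 over all genes. Limma called 1 of the 14 higher and 0 lower, against 2.55% of all genes in either direction. The gene was Syvn1, which encodes the ubiquitin ligase HRD1 of the endoplasmic reticulum, known to act on NRF2 and on misfolded proteins. It had 47.0, 42.2 and 34.8 FPKM in the knockout males and 25.04, 17.57 and 18.43 FPKM in the wild-type males. The groups were well apart (log2 change 0.99, SE 0.17, adjusted p = 0.0185 by limma). The call was lost without knockout male 1 (adjusted p = 0.0564) or 2 (0.0641), without wild-type male 2 (0.0511) or 3 (0.0766), with quantile normalization (0.0556), with only the groups compared (0.128) and with array weights (log2 change 0.80, 0.145). In females 0 of the 14 were called (2 with an unadjusted p under 0.05, Bach1 and Maff, against 6.13% of all genes). Bach1, a repressor that competes for NRF2 sites, averaged lower in knockout females, at 3.97 ± 0.62 FPKM, than in wild-type females, at 7.02 ± 1.55 FPKM (adjusted p = 0.78 by limma).

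Hmox1 (Entrez gene 15368, GRCm38 chromosome 8, 75093618 to 75100593) encodes heme oxygenase 1, which opens the heme ring and is made in large part by macrophages that clear red cells. It had 19.9, 33.1 and 14.8 FPKM in knockout males 1 to 3, against 10.2, 9.75 and 10.4 FPKM in wild-type males 1 to 3. The wild-type males were tightly grouped, and all knockout males lay above them. The mean was 2.23-fold higher (log2 change 1.01, SE 0.27, adjusted p = 0.065 by limma). Without knockout male 2 it was 1.72-fold higher (adjusted p = 0.193), and without knockout male 3 the change was called (log2 change 1.26, adjusted p = 0.0278), as it was with the length trend removed (adjusted p = 0.0459). In females Hmox1 had 20.6, 20.6 and 22.3 FPKM in the knockouts, against 22.3, 19.0 and 37.9 FPKM in the wild types, so that wild-type female 3 stood above all other libraries.

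Wild-type males had less Hmox1 than wild-type females, the only member called in that comparison (log2 change -1.24, SE 0.27, adjusted p = 0.0128 by limma, males minus females). In knockout livers the male and female values overlapped (log2 change 0.02, 95% interval -0.57 to 0.61). Summed macrophage markers, like Hmox1, were lowest in the wild-type males. The summed level of 15 such genes, among them Clec4f, Vsig4, Marco and C1qa, was 445, 1096 and 592 FPKM in knockout males 1 to 3, against 211, 390 and 313 FPKM in wild-type males 1 to 3. It was 606, 671 and 883 FPKM in the knockout females and 621, 519 and 790 FPKM in the wild-type females. Within groups the order of the libraries could differ from that of Hmox1. Wild-type male 2 had the highest sum of the wild-type males and the lowest Hmox1. None of the 15 markers was at 0 in any library. In knockout males 6 of them rose and 0 fell, against 2.55% of all genes called in either direction. In wild-type males 9 of the 15 were lower and 0 higher than in wild-type females, against 11.1% of all genes called lower. Summed markers of the sinusoidal endothelium and of stellate cells were also lowest in the wild-type males. The endothelial markers had a summed level of 154 to 165 FPKM in knockout males, 98.3 to 114 in wild-type males, 180 to 195 in knockout females and 184 to 212 in wild-type females, and 6 of 10 were called higher in knockout males. The stellate cell markers summed to 161 to 251 FPKM in knockout males, 109 to 127 in wild-type males, 185 to 224 in knockout females and 174 to 188 in wild-type females. Of 9 stellate markers, 2 were called higher in knockout males, and 4 were called lower in wild-type males than in wild-type females, beside the same shares of all genes. The part of these cell types in the levels of Hmox1 and the other members was not tested.

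Among 8 further genes of heme breakdown and iron storage, limma called 1 higher and 0 lower in knockout males. The share called over all genes was 2.55% in either direction. The median log2 change of the 8 was 0.31, beside 0.19 over all genes. Slc40a1, the iron exporter ferroportin, had 46.2, 48.6 and 52.3 FPKM in the knockout males and 34.6, 26.2 and 30.1 FPKM in the wild-type males. The groups did not overlap (log2 change 0.68, SE 0.15, adjusted p = 0.0451 by limma). The call was lost in 10 of the 12 fits that left out a library, all but those without wild-type male 1 or wild-type female 3. It was also lost with median-ratio scaling (log2 change 0.45, adjusted p = 0.234), quantile normalization (0.162), no filter (0.0609), only the groups compared (0.182), array weights (0.247) and the replicate block (0.0768), and without the 3 libraries holding transcripts of the other sex (0.12). In knockout females 0 of the 8 were called by limma, and 0 had an unadjusted p under 0.05.

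Nqo1 (Entrez gene 18104, GRCm38 chromosome 8, 107388225 to 107403205) encodes a quinone reductase and is a common readout of NRF2 activity. It had 5.45, 19.6 and 4.70 FPKM in knockout males 1 to 3, against 3.25, 3.78 and 3.68 FPKM in wild-type males 1 to 3. Knockout male 2 stood 3.85-fold above the mean of the other knockout males, which were themselves above every wild-type male. The mean was 2.77-fold higher with knockout male 2 (log2 change 0.997, SE 0.37, adjusted p = 0.135 by limma) and 1.42-fold higher without it (log2 change 0.41, adjusted p = 0.208). In females Nqo1 had 10.1, 9.79 and 9.37 FPKM in the knockouts, against 8.96, 6.53 and 7.29 FPKM in the wild types. Those groups did not overlap, but the change did not pass (log2 change 0.33, 95% interval -0.47 to 1.13, adjusted p = 0.926).

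A difference between the sexes in Nqo1 was called once knockout male 2 was left out. Every wild-type male lay below every wild-type female (log2 change -0.90, males minus females, adjusted p = 0.115 by limma with all libraries). Without knockout male 2, which is in neither of these groups and serves only the estimate of the spread, the same difference was called (adjusted p = 0.00115), as it was with only the wild-type groups in the fit (adjusted p = 0.0104). In the knockouts the log2 difference between males and females was -0.24 (adjusted p = 0.842) with that library and -0.83 (adjusted p = 0.00896) without it.

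**Figure D3:**
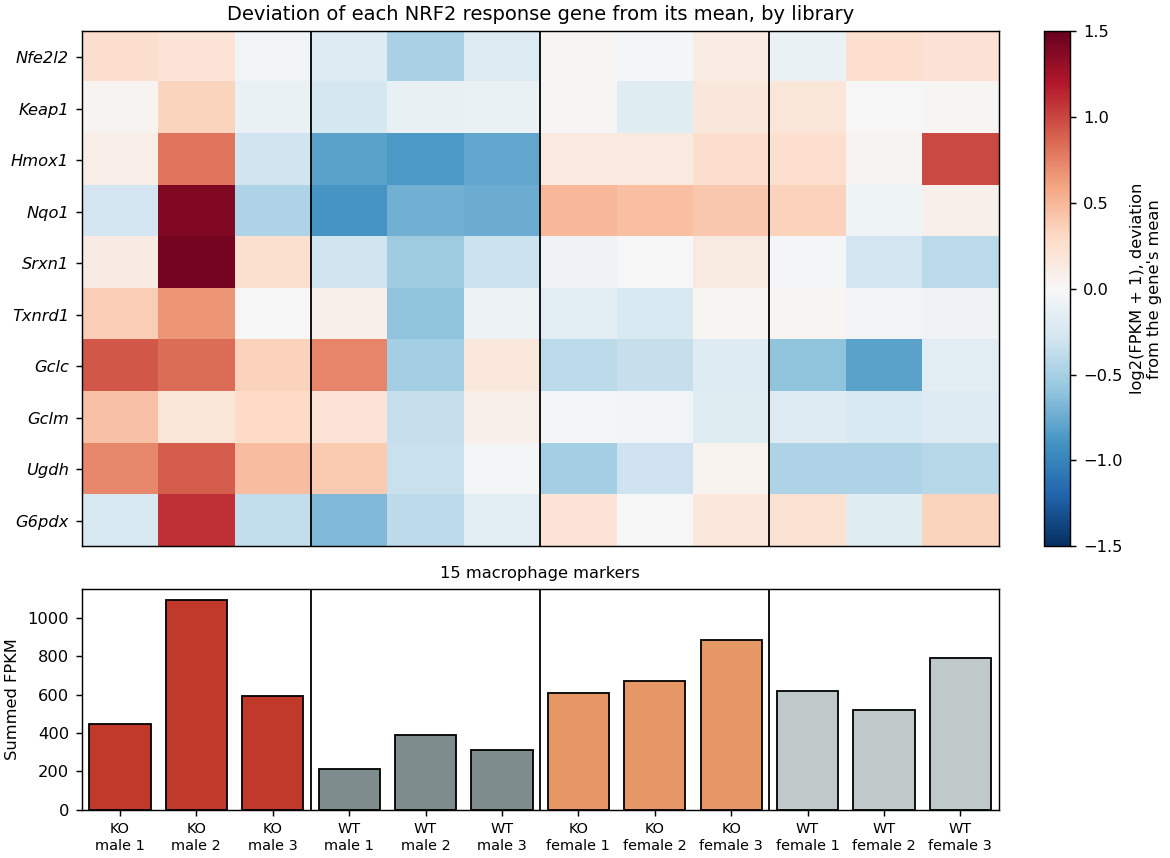
Upper panel, deviation of log2(FPKM + 1) from the mean over the 12 libraries for each NRF2 response gene, in red above and in blue below the mean. Lower panel, summed FPKM of 15 macrophage markers in the same libraries, highest in knockout male 2 at 1096 FPKM.

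Srxn1 (Entrez gene 76650, GRCm38 chromosome 2, 152105524 to 152111376) encodes sulfiredoxin, which restores overoxidized peroxiredoxins, and its window above held the core motif on the opposite strand. It had 15.3, 39.4 and 16.6 FPKM in knockout males 1 to 3, against 11.12, 9.30 and 10.98 FPKM in wild-type males 1 to 3. All knockout males were above all wild-type males, and knockout male 2 was 2.47-fold above the mean of the other 2 knockouts. The mean was 2.27-fold higher (log2 change 0.98, SE 0.27, adjusted p = 0.0737 by limma) and 1.52-fold higher without knockout male 2 (adjusted p = 0.109). Without knockout male 3 the change was called (log2 change 1.17, adjusted p = 0.0485). In females Srxn1 had 13.4, 14.0 and 15.4 FPKM in the knockouts and 13.7, 11.3 and 10.3 FPKM in the wild types, and the groups overlapped (adjusted p = 0.922).

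Txnrd1 (Entrez gene 50493, GRCm38 chromosome 10, 82833951 to 82897724) encodes the cytosolic thioredoxin reductase. It had 44.3, 54.8 and 34.3 FPKM in the knockout males, against 36.2, 22.1 and 32.4 FPKM in the wild-type males. Knockout male 3 lay within the range of the wild types. The log2 change was 0.55 (95% interval 0.13 to 0.96, adjusted p = 0.124 by limma), and the fold was 1.47 with all libraries, 1.3 without knockout male 2 and 1.297 without wild-type male 2. In females the values overlapped, at 31.4 ± 3.09 FPKM in knockouts and 33.7 ± 1.10 FPKM in wild types. Of 6 other genes of the thioredoxin and peroxiredoxin systems 0 were called in knockout males and 0 in knockout females. An unadjusted p under 0.05 was found for 1 in knockout males (23.9% of all genes) and 0 in knockout females (6.13%). The median log2 change in males was 0.17, beside 0.19 over all genes. Txnip, an inhibitor of thioredoxin, averaged 27.2 ± 6.59 FPKM in knockout males and 17.7 ± 3.17 FPKM in wild-type males (adjusted p = 0.204).

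Gclc (Entrez gene 14629, GRCm38 chromosome 9, 77754535 to 77794489) encodes the catalytic subunit of glutamate-cysteine ligase, the rate-limiting enzyme of glutathione synthesis, and was the most abundant member. It had 211, 197 and 141 FPKM in knockout males 1 to 3, against 184, 76.7 and 123 FPKM in wild-type males 1 to 3. The groups overlapped, and wild-type male 2 was the lowest male. The fold was 1.43 (log2 change 0.58, 95% interval -0.03 to 1.19, adjusted p = 0.227 by limma), and 1.19 without wild-type male 2. In females Gclc had 83.1, 86.2 and 96.1 FPKM in the knockouts and 72.3, 62.5 and 98.5 FPKM in the wild types. Knockout males had 2.07 times the Gclc of knockout females without overlap, a difference that did not pass (log2 change 1.02, SE 0.28, adjusted p = 0.0716 by limma). It was called with median-ratio scaling (0.0321), only the groups compared (0.0344), array weights (0.0228) and the length trend removed (0.0432), and without wild-type male 1 (0.0302) or 2 (0.0188).

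Gclm (Entrez gene 14630, GRCm38 chromosome 3, 122245487 to 122267215) encodes the modifier subunit of the same enzyme and varied much less. It had 92.2, 77.1 and 83.9 FPKM in the knockout males and 78.7, 53.1 and 71.7 FPKM in the wild-type males. The ranges overlapped at their edges (log2 change 0.33, 95% interval 0.02 to 0.63, adjusted p = 0.186 by limma). Relative to the median gene the change was 0.13. In females all 3 knockouts, at 67.0, 65.9 and 59.8 FPKM, lay above the wild types, at 59.3, 57.5 and 59.5 FPKM, with a log2 change of 0.13 (95% interval -0.18 to 0.43).

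Other genes of glutathione synthesis and transfer formed a list of 14, of which 13 were tested. In knockout males limma called 0 of them, against 2.55% of all genes. An unadjusted p under 0.05 was found for 7, against 23.9% of all genes. The median log2 change was 0.46 beside 0.19 over all genes. Gss, which completes glutathione, had 32.0, 34.5 and 29.4 FPKM in the knockout males and 26.2, 24.6 and 20.8 FPKM in the wild-type males (log2 change 0.41, adjusted p = 0.0739). Gstp1, a glutathione transferase known for high levels in male mouse liver, had 449, 1410 and 726 FPKM in the knockout males and 1940, 2121 and 1525 FPKM in the wild-type males. Its groups did not overlap, with the knockouts lower (log2 change -1.26, adjusted p = 0.0603), and the change was called without knockout male 2 (log2 change -1.69, adjusted p = 0.0128) and with the length trend removed (-1.18, 0.038). Gstp1 and Gstp2 are near-identical, so their separate values are uncertain. In knockout females 0 of the 13 were called and 1 had an unadjusted p under 0.05, against 6.13% of all genes. This was the cystine transporter Slc7a11, at 10.5 ± 3.53 FPKM against 6.31 ± 0.625 FPKM in wild-type females (adjusted p = 0.781 by limma).

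Ugdh (Entrez gene 22235, GRCm38 chromosome 5, 65413207 to 65435842) encodes UDP-glucose dehydrogenase, which makes UDP-glucuronic acid for glucuronidation, and its window above held the core motif on both strands. It had 140, 158 and 117 FPKM in knockout males 1 to 3, against 111, 66.9 and 82.7 FPKM in wild-type males 1 to 3. Every knockout male lay above every wild-type male, by a small margin between knockout male 3 and wild-type male 1. The fold was 1.59 (log2 change 0.68, SE 0.19, adjusted p = 0.0743 by limma). The change was called without wild-type male 1 (log2 change 0.88, adjusted p = 0.0488) and with the length trend removed (0.69, adjusted p = 0.0496). In females Ugdh had 58.9, 67.6 and 87.1 FPKM in the knockouts and 61.0, 60.9 and 62.2 FPKM in the wild types, which overlapped.

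Ugdh was the only member called between knockout males and knockout females, and it was higher in the males (138 ± 20.8 against 71.2 ± 14.4 FPKM, log2 change 0.96, SE 0.19, adjusted p = 0.0182 by limma). The call was lost without knockout male 1 (0.0639) or 2 (0.0577) and without knockout female 1 (0.0903) or 2 (0.0663), without all 3 libraries holding transcripts of the other sex (0.145), and with only the groups compared (0.0514), a fit in which Gclc was the 1 member called. Wild-type males, at 86.9 ± 22.4 FPKM, were also all above wild-type females, at 61.4 ± 0.715 FPKM, with a log2 change of 0.46 (adjusted p = 0.122). Of 14 further genes of detoxification and export, 13 were tested, and limma called 0 in knockout males and 0 in knockout females. An unadjusted p under 0.05 was found for 3 in males (23.9% of all genes) and 1 in females (6.13%). The median log2 change was 0.34 in males and -0.08 in females. The 1 in females was Cyp2a5, at 384, 308 and 331 FPKM in the knockouts and 1082, 1176 and 403 FPKM in the wild types. Its log2 change was -1.24 (adjusted p = 0.78 by limma), and it was called with array weights (-1.46, 0.0491). Ephx1, microsomal epoxide hydrolase, averaged 372 ± 67.5 FPKM in knockout males and 267 ± 13.5 FPKM in wild-type males (log2 change 0.46, adjusted p = 0.0999), and was called with the length trend removed (adjusted p = 0.0402).

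G6pdx (Entrez gene 14381, GRCm38 chromosome X, 74409483 to 74428880) encodes glucose-6-phosphate dehydrogenase, which opens the pentose phosphate pathway and yields NADPH, and was the least abundant member. It had 2.28, 7.30 and 2.01 FPKM in knockout males 1 to 3, against 1.45, 1.95 and 2.46 FPKM in wild-type males 1 to 3. Knockout male 2 was 3.40-fold above the mean of the other knockout males, which lay inside the range of the wild types. The fold was 1.98 with knockout male 2 (log2 change 0.57, 95% interval -0.12 to 1.27, adjusted p = 0.285 by limma) and 1.098 without it. In females G6pdx had 3.48, 2.89 and 3.33 FPKM in the knockouts and 3.56, 2.43 and 3.91 FPKM in the wild types. The lowest value, in wild-type male 1, corresponded to about 93.6 fragments by the estimated depth. The part of counting error in the spread between libraries was not tested. Its intronless copy G6pd2 was listed at 0 in 11 libraries and at 0.03 FPKM in the other. Of 7 further genes of the pentose phosphate pathway and NADPH supply, 0 were called in either sex and 0 had an unadjusted p under 0.05, with a median log2 change of 0.16 in knockout males. Pgd, the next dehydrogenase of that pathway, had 21.2, 52.8 and 18.2 FPKM in knockout males 1 to 3, against 16.9, 19.2 and 23.3 FPKM in the wild-type males, with knockout male 2 again the highest.

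Between the sexes, 1 member was called in each genotype. The log2 change, males minus females, was above 0 in 9 of 10 members in the knockouts and in 3 of 10 in wild type, beside 5637 and 2797 of the 11514 genes tested. In wild type, limma called 1 member lower in males (Hmox1), against 11.1% of all genes, and 0 higher, with 13.4% of all genes called in either direction (266 higher, 1273 lower), and 5 members had an unadjusted p under 0.05, against 32.8%. All 3 wild-type males lay below all 3 wild-type females in Nfe2l2, Keap1, Hmox1 and Nqo1, 4 members of 10, against 34.1% of all genes, and above them in Ugdh, 1 member, against 6.04%. The median gene was itself lower by 0.21 on the log2 scale in wild-type males. With median-ratio scaling the calls over all genes were 618 higher and 456 lower in males, Gclc (log2 change 0.95, adjusted p = 0.0294), Gclm (0.48, 0.0426) and Ugdh (0.77, 0.0151) were called higher in wild-type males, and the sign turned for Keap1, Srxn1 and Txnrd1, none of them called. In the knockouts 1 member (Ugdh) was called higher in males, against 1.67% of all genes, and 0 lower, with 3.67% of all genes called in either direction. An unadjusted p under 0.05 was found for 4 members, against 15.5%, and Gclc, Gclm and Ugdh did not overlap between the sexes, 3 members, against 10.1% of all genes. Leaving out single libraries added calls by limma. Without wild-type male 2, Gclm was called higher in males in the knockouts (adjusted p = 0.0423) and Gclc in wild type (0.031), and without knockout male 2, G6pdx was called lower in wild-type males (0.0464).

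**Figure D4:**
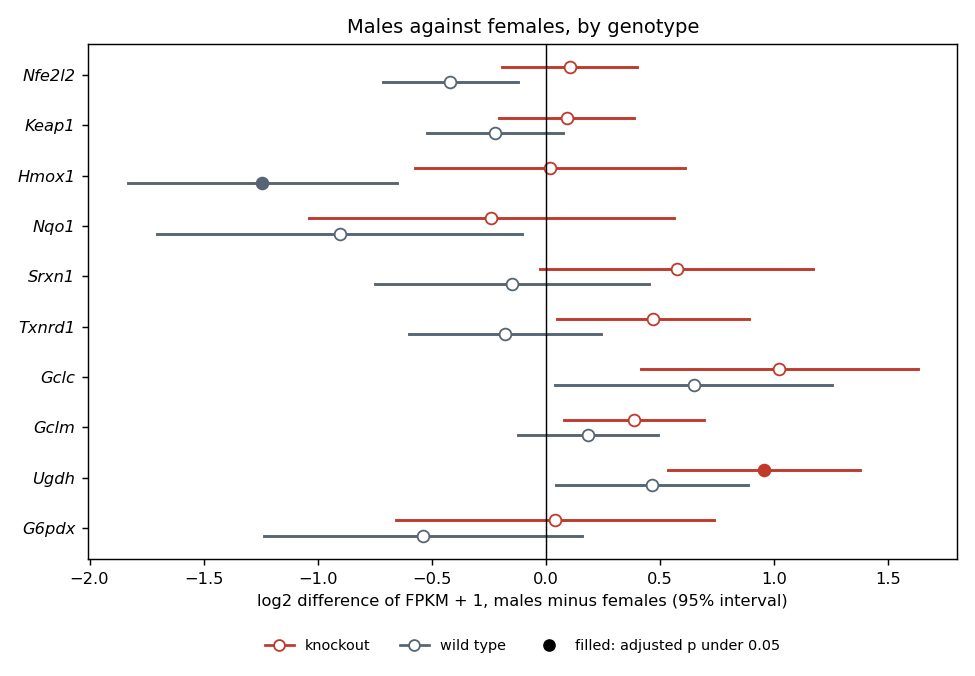
Log2 difference of FPKM + 1, males minus females, for each NRF2 response gene in knockout and in wild-type livers, with its 95% interval from limma. Filled symbols mark an adjusted p under 0.05, which holds for Hmox1 in wild type (-1.24) and for Ugdh in the knockouts (0.96).

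The members differed in their pattern over the 12 libraries. Likeness was measured as the root mean square difference between the centred log2 values of a pair of genes over the 12 libraries, where a smaller value is closer. The closest pairs of members were Nfe2l2 with Keap1 (0.19) and Gclc with Ugdh (0.21), and Nqo1 and Gclc were the farthest apart (0.88). Pairs of members were not filtered by spread, and genes that vary little are close by this measure. Keap1 and Nfe2l2 had the smallest SDs of the members over the 12 libraries (0.17 and 0.23). Nqo1 was closest to G6pdx (0.29) among the members, and Srxn1 to Txnrd1 (0.31). Among other tested genes of similar or larger spread, the closest to Nfe2l2 were Ppwd1 (0.08), Pigm (0.08) and Smn1 (0.09), and those closest to Gclc were Trim2 (0.19), Ugt2b35 (0.21) and Hspa13 (0.23). Hmox1 was closest to Cd300ld (0.21), Axl (0.22) and Msn (0.22). Nqo1 was closest to Pld4 (0.17), Sfpi1 (0.17) and Usp18 (0.18), and Srxn1 to Parp9 (0.17), Wars (0.18) and Anxa5 (0.19). These likenesses describe libraries that share their depth, scaling and cell makeup.

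Several of the male differences moved with single libraries. Of the 10 members, 6 were highest of all 12 libraries in knockout male 2, 3 in knockout male 1 and 1 in wild-type female 3, and 5 were lowest of all in wild-type male 2. Without knockout male 2 the fold in males stood at 1.098 in G6pdx to 1.72 in Hmox1, against 1.21 in Keap1 to 2.77 in Nqo1 with it. Without wild-type male 2 it stood at 1.12 in Gclm to 2.86 in Nqo1. The direction in males was kept for all 10 members in each fit that left out 1 male library. Leaving out a female library cannot change the log2 change in males.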

How the data were processed

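Liver RNA of 12 libraries, 3 in each of 4 groups by genotype and sex, was measured by RNA sequencing. The authors deposited 1 table of FPKM per gene, rounded to 2 decimals, and the submitters' processing notes name TopHat2 and mm10, while the tool that made the FPKM is not given in the sources used here. Counts were not part of that table, so log2(FPKM + 1) was tested with limma 3.58.1 (R 4.3.3), with trended prior variance and a mean for each group over all 12 libraries, on 11514 genes reaching 1 FPKM in 3 or more libraries. Benjamini-Hochberg adjustment covered all of them, with a threshold of 0.05. The pseudocount of 1 understates changes of low genes such as G6pdx. Folds are ratios of mean FPKM. The procedure was tested on simulated data. Transcript lengths came from GENCODE M21 and start regions from RefSeq. In pathway lists, up to 3 called genes, or else up to 2 with the smallest p, were named, along with a few chosen after their values were seen. Members and lists were chosen with earlier results of these data known. Alternatives covered pseudocount, filter, scaling, length, weights, block and left-out libraries.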

Additional observations from a re-analysis of the deposited data

How the results depend on the processing

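Of the members' single values under the alternatives, 1264 kept their side of the threshold, 24 gained a call, 6 lost one and 0 reversed among called values. For the male knockout effect the 294 genes called became 174 without a filter, 145 with median-ratio scaling, 140 with quantile normalization, 3 with only the groups compared, 63 with array weights, 889 with the length trend removed, 125 without the 3 libraries holding transcripts of the other sex, and 58 to 570 when 1 library was left out. Members called there numbered 2 with the length trend removed and 0 to 2 when 1 library was left out. For the female knockout effect the 2 genes became 1 with a pseudocount of 0.1, with a mean of at least 5 FPKM, with median-ratio scaling and with the length trend removed, 4 without a filter, 6 with only the groups compared, 229 with array weights, 0 without the 3 libraries, and 0 to 12 leaving out 1. The 3 genes of the difference between the effects became 5 with a pseudocount of 0.1, 10 with array weights, 1 with the length trend removed and 1 to 22 leaving out 1. The 168 genes of the averaged effect became 57 without a filter, 69 with median-ratio scaling, 342 with array weights, 579 with the length trend removed, 8 without the 3 libraries, and 30 to 238 leaving out 1. Between wild-type males and females the 1539 genes became 904 with a mean of at least 5 FPKM, 2360 with the length trend removed, 525 without the 3 libraries, and 675 to 2081 leaving out 1, and the 1 member called became 4 with median-ratio scaling, 2 with only the groups compared, 3 with array weights, 2 with the length trend removed, and 1 to 3 leaving out 1. In the knockouts the 423 genes became 216 with only the groups compared, 675 with array weights, 655 with the length trend removed, 123 without the 3 libraries, and 201 to 637 leaving out 1, and the 1 member became 2 with median-ratio scaling, 3 with array weights, 2 with the length trend removed, 0 without the 3 libraries, and 0 to 3 leaving out 1. Estimation of the array weights stopped before full convergence. Fewer samples enter the fits that leave libraries out, and for the others the cause was not tested.

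No consistent pairing of the libraries by replicate number was seen, which does not exclude one. The deviations of libraries with equal numbers correlated at -0.322 to 0.561 over 18 pairs. Of these, 6 were over 0.1, beside 13 of 36 pairs with unequal numbers, and 4 of 12 libraries correlated best with their own number. With the replicate block, 132 genes were called in males, 60 in the averaged effect and 5 in the difference between the effects, no member's call changed, and Slc40a1 lost its call in males (adjusted p = 0.0768). Depth and counting error can be estimated only from the FPKM steps, and 3 libraries a group limit what can be called.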

Other observations

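Of 61 tested genes of the 6 lists, limma called 5 higher and 5 lower in wild-type males than in wild-type females, beside 13.4% of all genes called in either direction. It called 5 higher and 1 lower in knockout males than in knockout females, beside 3.67% of all genes. The wild-type count is near the share over all genes, and nothing particular to these lists is read from either count. Gstp1, a glutathione transferase, averaged 1862 ± 306 FPKM in wild-type males and 237 ± 39.8 FPKM in wild-type females (log2 change 2.97, adjusted p = 0.000174, n = 3 each), and the call was kept in all 12 fits that left out a library. Txnip, an inhibitor of thioredoxin, averaged 17.7 ± 3.17 FPKM in wild-type males and 72.4 ± 23.8 FPKM in wild-type females (log2 change -1.93, adjusted p = 0.000751 by limma). Aox1, an aldehyde oxidase, was called higher in males in both genotypes, with log2 changes of 1.38 in the knockouts (adjusted p = 0.00243) and 1.06 in wild type (adjusted p = 0.00602 by limma). Mafk, a small MAF partner of NRF2, was lower in wild-type males than in wild-type females (log2 change -0.82, adjusted p = 0.00993 by limma), a call lost without the 3 libraries holding transcripts of the other sex (log2 change -0.77, adjusted p = 0.0613).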
